A study of Mus musculus with 16 samples.

Results

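The mitochondrial genome of the mouse encodes 37 of the 53379 genes counted in this series, and these were all the genes whose symbol begins with mt-. They comprise 13 protein-coding genes, 2 ribosomal RNAs (rRNAs) and 22 transfer RNAs (tRNAs). All 37 lie on the mitochondrial chromosome, 9 of them on the minus strand, and in the GRCm38 annotation 34 of 36 neighbouring pairs are separated by fewer than 5 bases or overlap. The reads they drew, the mix of genes behind those reads and the nuclear genes that work with them were compared over cell types, over Eed genotypes and over well and poorly aligned libraries.

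Mitochondrial DNA is transcribed from both strands as long precursors, which are cut mostly at the tRNAs that punctuate them. The protein-coding genes specify core subunits of the respiratory chain (complexes I, III and IV) and of the ATP synthase (complex V), and the remaining subunits of those complexes are encoded in the nucleus. Transcription depends on the nuclear-encoded RNA polymerase POLRMT and the packaging factor TFAM. Messages from this genome are often a large and variable share of RNA-seq reads, and their share is widely used as a sign of library quality.

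RNA was sequenced from cells sorted from the mouse neocortex at postnatal day 4. The labels give the strain as CD1, and the study's methods describe a mixed background of C57BL/6 and CD1. All animals carried MADM7-GT/TG (mosaic analysis with double markers, in which recombination between homologous chromosomes colours single cells), Emx1-cre, a recombinase active in the cortical progenitor lineage, and XGFAP-lacZ, in which the human GFAP promoter drives lacZ. Green cells were Eed+/+ in animals without an Eed mutation, and Eed-/- in mosaic animals that were otherwise heterozygous for Eed. Eed encodes the PRC2 component that binds methylated histone H3, and PRC2 is a silencing complex of the Polycomb group. Green cells with lacZ activity were collected as astrocytes and green cells without it as neurons, so the neuron gate was defined by the lack of a glial marker. In both genotypes the breeding scheme gives green cells their pair of MADM chromosomes from the father. Labelled libraries numbered 5 Eed+/+ astrocyte, 5 Eed-/- astrocyte, 2 Eed+/+ neuron and 3 Eed-/- neuron, each from an individual animal, and 1 further Eed-/- library carried conflicting cell type labels and entered no comparison. The question put to the groups was whether loss of Eed or the cell type moved mitochondrial transcripts.

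The 15 labelled libraries held between 211736 and 3178529 reads on genes, and between 26.1% and 76.6% of their reads aligned uniquely. A library was called poorly aligned where under 60% or under 1000000 of its reads were uniquely aligned. That applied to 5 libraries: Eed-/- astrocyte replicates 1, 3 and 4, Eed+/+ astrocyte replicate 3 and Eed+/+ neuron replicate 2. Both limits are values the study names for its embryonic libraries. Of the 16 samples used here the study removed 5, for their place in a principal component plot or low correlation between replicates. Its methods do not name them. All 15 labelled libraries were kept here. Eed, the targeted gene, stood at 67.7 and 75.7 CPM (reads of a gene per 1000000 reads on genes) in Eed+/+ neurons and at 16.7, 36.0 and 32.7 CPM in Eed-/- neurons, without overlap. In Eed+/+ astrocytes it stood at 41.9, 64.2, 4.19, 35.3 and 25.3 CPM and in Eed-/- astrocytes at 0, 13.8, 0, 0 and 14.1 CPM. The library labelled Eed+/+ astrocyte replicate 3, with 2 reads on Eed, lay below Eed-/- replicates 2 and 5. Whole genes were counted, so reads from exons outside the deletion would be included. Summed over 8 astrocyte markers, levels ran from 2895 to 23553 CPM in astrocyte libraries and from 6428 to 8846 CPM in neuron libraries. Over 8 neuron markers they ran from 0 to 3992 CPM in astrocyte libraries and from 835 to 2215 CPM in neuron libraries. Over all labelled libraries neither list separated the cell types. Among well aligned libraries the astrocyte markers did, with 10622 to 23553 CPM in the 6 astrocyte libraries and 6428 to 8377 CPM in the 4 neuron libraries, while the neuron markers still overlapped. All 8 astrocyte markers, Gfap and Aqp4 included, were detected in both neuron groups, and of the neuron markers only Syt1 was at 0 in a group, the Eed+/+ neurons. Summed over 6 markers of the oligodendrocyte lineage the levels ran from 206 to 4038 CPM and overlapped between all 4 groups, and over 5 endothelial markers they were at most 54.4 CPM.

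Sequence shared with the nucleus limits which mitochondrial genes can be counted, because the files hold uniquely aligned reads only. A run of 7 annotated pseudogenes at chr1:24611535-24616197 (GRCm38) carries mitochondrial sequence from mt-Co1 to mt-Nd4. The start of mt-Atp6 (chrM:7927-8016, plus strand), a subunit of complex V, and of its copy Gm10925 (chr1:24614562-24614651, minus strand) are printed because their 90 bases are identical, so that a read from either place cannot be assigned.
mt-Atp6: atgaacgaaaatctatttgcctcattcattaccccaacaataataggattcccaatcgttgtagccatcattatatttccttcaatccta
Gm10925: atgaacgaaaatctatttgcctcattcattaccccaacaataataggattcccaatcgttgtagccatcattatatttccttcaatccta
The next pair is the start of mt-Nd3 (chrM:9459-9518, plus strand), a subunit of complex I, and of Gm28438 (chr1:24613060-24613119, minus strand). They are printed because the pair differs at 1 base in 345 aligned bases, T3C, counted from the first base of the mitochondrial gene, with the mitochondrial base first, and given here in capitals.
mt-Nd3: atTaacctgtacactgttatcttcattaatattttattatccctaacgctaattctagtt
Gm28438: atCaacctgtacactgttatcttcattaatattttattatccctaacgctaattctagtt
The end of the shared block lies inside mt-Co1 (chrM:6381-6447, plus strand), the catalytic core of complex IV. Its copy Gm29216 (chr1:24616131-24616197, minus strand) holds 6 substitutions in 492 aligned bases, all within the stretch printed here: T1056A, C1057T, A1059G, A1060G, C1062A and A1066T.
mt-Co1: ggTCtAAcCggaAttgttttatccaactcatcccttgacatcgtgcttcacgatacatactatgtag
Gm29216: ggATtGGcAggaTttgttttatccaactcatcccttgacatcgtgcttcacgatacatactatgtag

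Over all 15 labelled libraries 1556252 reads fell on the mitochondrial genes. Of these, 99.8% came from 9 genes: mt-Rnr1, mt-Rnr2, mt-Nd1, mt-Nd2, mt-Co1, mt-Nd4, mt-Nd5, mt-Nd6 and mt-Cytb. The other 6 protein-coding genes (mt-Co2, mt-Co3, mt-Atp6, mt-Atp8, mt-Nd3 and mt-Nd4l) drew 46 reads between them, with at most 3 for a single gene in a library, and mt-Nd4l drew none. Of the 50-base windows of mt-Co2, 100% occur exactly in an annotated nuclear transcript. The share was 99.5% for mt-Atp6, 99.9% for mt-Co3, 98.0% for mt-Nd3 and 98.8% for mt-Nd4l. All 5 genes were therefore almost without sequence to which a read of that length could align uniquely, so that counts near 0 cannot show whether they were expressed. Among the genes with many reads, mt-Nd4 shared 62.2% of its windows and mt-Co1 51.1%, mt-Nd2 and mt-Nd5 shared 8.19% and 7.61%, and mt-Rnr1, mt-Nd1, mt-Nd6 and mt-Cytb shared none. The level of mt-Co1 was 69185 reads per kb of gene, summed over the 15 libraries, and 275492 reads per kb if all its reads came from outside the shared windows. The 7 nuclear copies on chromosome 1 drew 651 reads in total.

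mt-Atp8, the other complex V gene, is the exception: it drew 8 reads although none of its 155 windows occurred in an annotated nuclear transcript. It lies between the stretches copied in Gm28661 and Gm10925, where the annotation holds no transcript on chromosome 1, and whether the genome has a copy there was not tested. The last 43 bases of mt-Atp8 (in capitals; chrM:7900-7969, plus strand) are also the first bases of mt-Atp6, and reads over them touch both genes.
mt-Atp8, 3′ end: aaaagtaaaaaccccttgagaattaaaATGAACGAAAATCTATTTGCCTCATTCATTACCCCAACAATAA

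**Figure D1:**
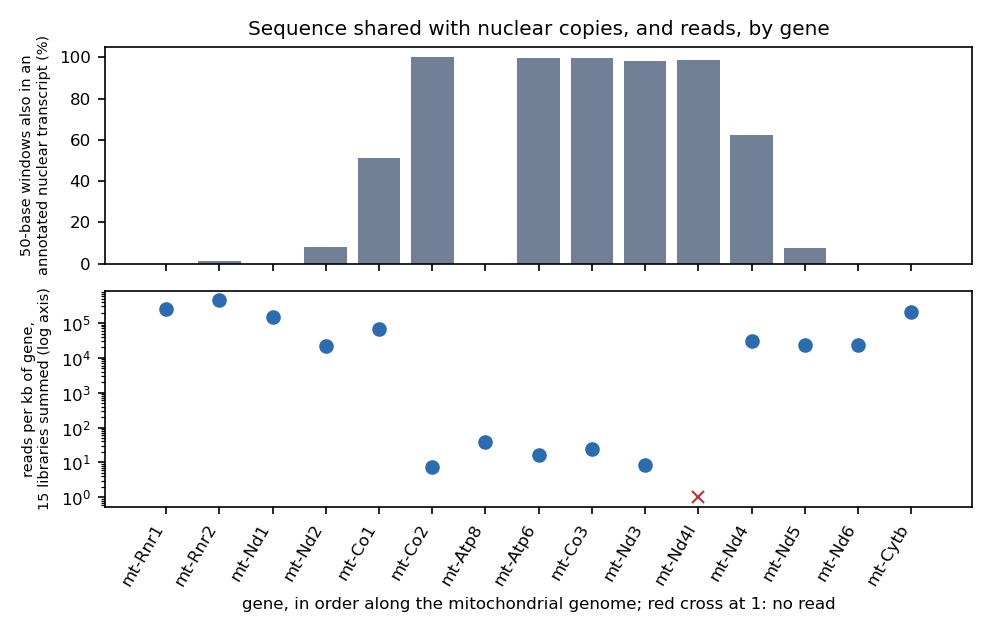
Percent of the 50-base windows of each rRNA and protein-coding gene that occur exactly in an annotated nuclear transcript (top) and reads per kb of gene summed over 15 labelled libraries on a log axis (bottom), with genes in their order along the mitochondrial genome and a red cross for the gene without reads. The 5 genes with at least 98.0% of windows shared, and mt-Atp8, sit at 39.2 reads per kb or less, and the 9 other genes at 21970 or more.

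Overlap between neighbours sets the other limit. A read that touches 2 genes was set aside as ambiguous. mt-Nd5 (plus strand) and mt-Nd6 (minus strand), both subunits of complex I, meet tail to tail and share 14 bases, printed in capitals at the 3′ end of each gene (chrM:13526-13565 and chrM:13552-13591).
mt-Nd5, 3′ end: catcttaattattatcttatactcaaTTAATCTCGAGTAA
mt-Nd6, 3′ end: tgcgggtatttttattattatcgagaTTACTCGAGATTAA
Counting each strand on its own and summing the strands restored 1476 reads to each gene, a gain of 3.57% for mt-Nd5 and of 12.02% for mt-Nd6. The library protocol does not mark strand, so the reads of mt-Nd6, the only protein-coding gene on the minus strand, include any that came from the opposite strand.

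The tRNA genes are between 59 and 75 bases long and most abut another gene. Together they drew 3173 reads over the 15 libraries. No read was counted on 8 of the 22. With each strand counted on its own and summed, mt-Tw went from 0 to 21 reads and mt-Ts1 from 0 to 1. mt-Ty, mt-Td, mt-Tk, mt-Tg, mt-Tr and mt-Th stayed at 0. Among tRNAs with reads, mt-Te gained 87 reads on 15, mt-Ti 68 on 14 and mt-Tt 56 on 33, while mt-Tf, mt-Tv, mt-Tl1, mt-Tn, mt-Tc, mt-Ts2 and mt-Tl2 gained 0. mt-Ts1, mt-Td, mt-Tk, mt-Tg and mt-Tr lie between mt-Co1 and mt-Nd4, the span with copies on chromosome 1. Only annotated transcripts were searched, so whether the genome copies these tRNAs there was not tested. mt-Tp and mt-Tq held 82.1% of the tRNA reads, with 1405 and 1201 reads. Both lie on the minus strand, mt-Tp (chrM:15356-15422) at the edge of the control region and mt-Tq (chrM:3772-3842) between mt-Ti and mt-Tm. Their sequences are printed as the tRNA genes that carry most of the tRNA signal.
mt-Tp: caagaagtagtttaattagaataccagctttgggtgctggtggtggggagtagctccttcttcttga
mt-Tq: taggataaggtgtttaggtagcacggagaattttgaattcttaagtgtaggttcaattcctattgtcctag
In a library, mt-Tp drew 11 to 147 reads (median 106) and mt-Tq 18 to 165 reads (median 84). Smart-Seq v2 primes on poly(A) tails, and whether these reads came from tRNAs or from longer transcripts was not tested.

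The 2 rRNAs, which form the small (mt-Rnr1) and large (mt-Rnr2) subunits of the mitochondrial ribosome, made up most of the mitochondrial reads. In 14 of the 15 libraries their share ran from 52.3% to 71.6%. Eed+/+ neuron replicate 2 stood apart: 96.1% of its 10196 mitochondrial reads were rRNA, 86.5% were mt-Rnr2 alone and 2.81% were protein-coding. In that library 60.6% of the mitochondrial reads counted by strand were assigned to the first strand, against 50.4% to 52.2% in the other 14. Per kb of gene, and summed over the libraries, mt-Rnr2 held 444558 reads, mt-Rnr1 258898, mt-Cytb 207872 and mt-Nd1 145266. mt-Co1 held 69185, and mt-Nd4, mt-Nd6, mt-Nd5 and mt-Nd2 were lowest of the 9 at 30724, 23669, 22671 and 21970 reads per kb. This order depends on sequence shared with the nucleus. If all reads came from outside the shared windows, mt-Co1 would stand at 275492 and mt-Nd4 at 84337 reads per kb. On that basis mt-Nd5 would stand at 29944 and mt-Nd2 at 26548, with mt-Nd6 unchanged.

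Among the protein-coding genes mt-Cytb, the only complex III subunit encoded here, had the most reads. Its share of mitochondrial reads ran from 9.42% to 19.1% (median 15.8%) without Eed+/+ neuron replicate 2, where it was 0.804% (82 reads). mt-Nd1, a membrane subunit of complex I, held 6.96% to 11.0% in those 14 libraries and 0.402% in Eed+/+ neuron replicate 2. mt-Co1 held 3.68% to 9.79% and 0.441%. The 14 libraries differed by less than 3 times in each of these genes, and Eed+/+ neuron replicate 2 lay below all of them. mt-Nd2, the complex I gene next to mt-Nd1, drew 12.04 to 20.3 reads per 100 mt-Nd1 reads in the 10 astrocyte libraries. In the 2 Eed+/+ neuron libraries it drew 25.9 and 124, and in the 3 Eed-/- neuron libraries 13.1, 12.4 and 31.8, so the cell types overlapped.

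**Figure D2:**
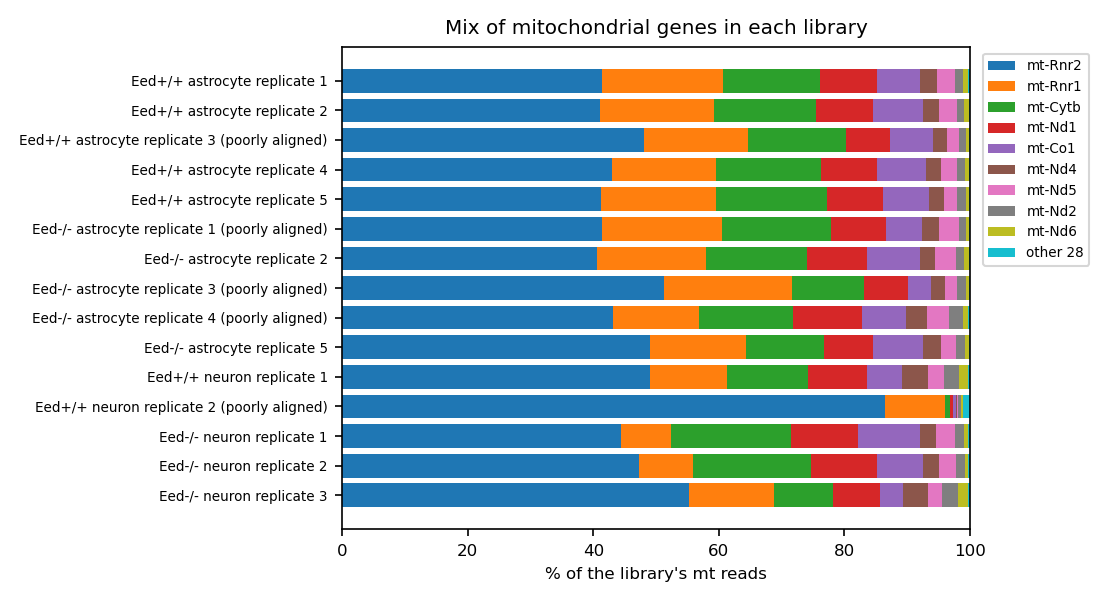
Percent of each library's mitochondrial reads on the 9 abundant genes and on the other 28 together, 1 bar per labelled library. mt-Rnr2 takes 86.5% in Eed+/+ neuron replicate 2 and 40.7% to 55.2% in the other 14, and the mt-Rnr1 segment is narrower in neurons (7.92% to 13.5%) than in astrocytes (13.7% to 20.4%).

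The balance between the 2 rRNAs differed between the cell types. In Eed+/+ astrocytes mt-Rnr1 drew 46.5, 44.6, 34.5, 38.5 and 44.7 reads per 100 mt-Rnr2 reads (replicates 1 to 5), a mean of 41.8 ± 5.08 (SD, n = 5). In Eed-/- astrocytes it drew 46.3, 42.5, 39.9, 31.7 and 31.3 (mean 38.3 ± 6.67, n = 5). The neuron libraries gave 25.0 and 11.0 for Eed+/+ and 17.8, 18.1 and 24.5 for Eed-/- (mean 20.1 ± 3.78, n = 3). All 10 astrocyte libraries lay above all 5 neuron libraries, and the genotypes overlapped within each cell type. Averaged over genotypes the difference was 20.98 reads per 100, against a spread within groups of 6.73 (SD). Among well aligned libraries alone the difference was 17.7. The neuron libraries all belonged to the first of the 2 runs of library numbers in the deposited names, and within that run the difference was 25.2. This ratio was looked at after its values had been seen and is given as a description without a test. Both genes had few or no windows shared with the nucleus (0% and 1.04%).

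**Figure D3:**
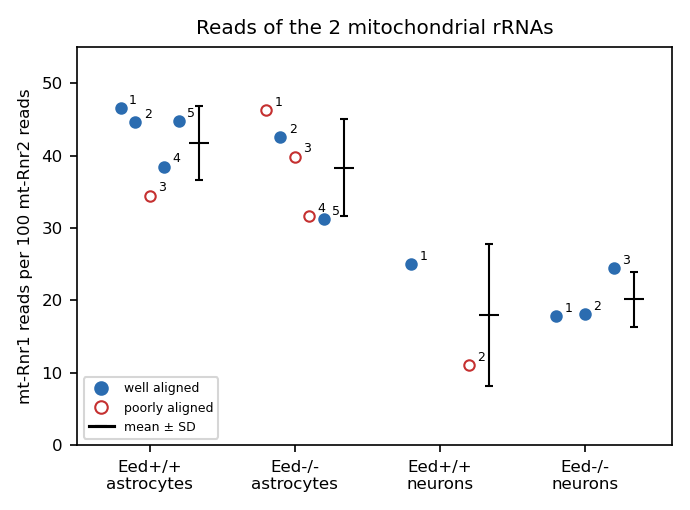
mt-Rnr1 reads per 100 mt-Rnr2 reads in each labelled library, with the replicate number beside each point, open red circles for poorly aligned libraries and bars for mean ± SD. Astrocyte libraries span 31.3 to 46.5 and neuron libraries 11.0 to 25.0.

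Mitochondrial genes took 5.94% to 12.6% of the gene reads in Eed+/+ astrocytes, with replicates 1 to 5 at 6.72%, 5.94%, 12.6%, 6.69% and 9.08% (mean 8.20% ± 2.71, n = 5). In Eed-/- astrocytes the replicates stood at 9.62%, 8.10%, 30.0%, 33.9% and 6.39% (mean 17.6% ± 13.2, n = 5). Replicates 3 and 4 of the Eed-/- group lay far above the rest, and the other 3 fell inside the Eed+/+ range. The Eed+/+ neuron libraries had 5.84% and 2.97%, and the Eed-/- neuron libraries 5.17%, 5.999% and 6.73% (mean 5.97% ± 0.777, n = 3). The exact 95% binomial interval of a share was at most 0.404 percentage points wide, so counting error was small beside the spread between libraries. Reads carried no molecular identifiers, and such intervals and limits cover counting error only.

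Averages of these shares depended on the poorly aligned libraries. The Eed-/- astrocyte mean exceeded the Eed+/+ mean by 9.41 percentage points, less than the 9.54 points (SD) within groups. Among well aligned libraries the difference was 0.137 points, without Eed-/- replicates 3 and 4 it was -0.161, and as a share of all reads it was -0.71. In neurons the Eed-/- mean exceeded the Eed+/+ mean by 1.56 points, and by 0.126 points without the poorly aligned Eed+/+ replicate 2. Astrocytes exceeded neurons by 7.72 points averaged over genotypes, by 1.27 points among well aligned libraries, by 2.97 points with medians in place of means, and by 0.703 points as a share of all reads. In bulk samples such as these, fewer cells with many mitochondrial transcripts and less of that RNA per cell cannot be told apart.

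The 5 poorly aligned libraries had a mean share of 17.8% ± 13.4, against 6.67% ± 1.15 in the 10 well aligned ones, and they ranged from 2.97% to 33.9%, on both sides of the well aligned range of 5.17% to 9.08%. Set against all reads in the file instead of reads on genes, the order turned. Mitochondrial reads were then 3.31% to 4.49% of a well aligned library (mean 3.84% ± 0.412) and 0.313% to 4.06% of a poorly aligned one (mean 2.11% ± 1.39). Eed-/- astrocyte replicates 3 and 4, with 30.0% and 33.9% of gene reads, had 4.06% and 2.43% of all reads on mitochondrial genes. In these libraries 7321 and 2959 genes had a read, against 11433 to 18064 in the well aligned libraries, and 46.7% and 71.6% of their uniquely aligned reads fell outside genes, against 8.55% to 19.8%. Eed-/- astrocyte replicate 1 had 4462 genes with a read, 48.2% outside genes and a share of 9.62%, and Eed+/+ astrocyte replicate 3 had 8979, 48.1% and 12.6%. Eed+/+ neuron replicate 2 had 12261 genes with a read, 60.3% outside genes and a share of 2.97%. The share was above all well aligned libraries in the 4 poorly aligned astrocyte libraries and below them in the neuron library.

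**Figure D4:**
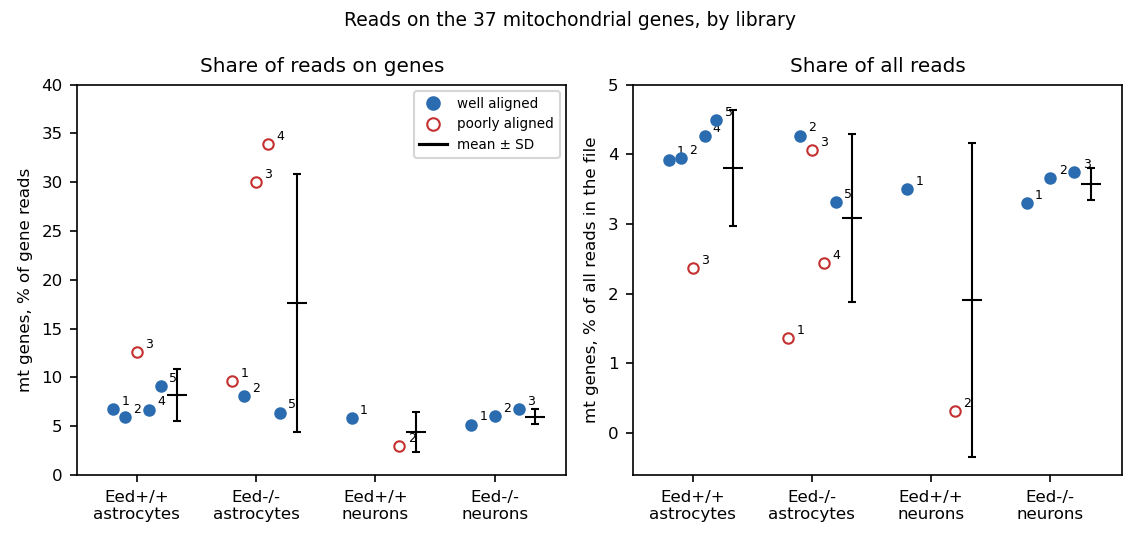
Reads on the 37 mitochondrial genes as percent of reads on genes (left) and of all reads in the file (right) in each labelled library, with the replicate number beside each point, open red circles for poorly aligned libraries and bars for mean ± SD. Eed-/- astrocyte replicates 3 and 4 stand at 30.0% and 33.9% on the left and at 4.06% and 2.43% on the right.

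Markers of other cell types were high in Eed-/- astrocyte replicates 1, 3 and 4, whose mitochondrial shares of 9.62%, 30.0% and 33.9% were above all well aligned libraries. Summed over 5 erythroid markers the level was 8829 CPM in Eed-/- astrocyte replicate 1 and 11925 CPM in replicate 4, and at most 52.0 CPM in the other 13 labelled libraries. Summed over 6 microglial markers it was 9382 CPM in Eed-/- astrocyte replicate 1 and 1368 CPM in replicate 3, and at most 269 CPM elsewhere. Replicate 4, with the highest share, had the highest erythroid sum and 0 CPM of microglial markers, and replicate 3 had 52.0 CPM of erythroid markers. All 5 erythroid and all 6 microglial markers had reads in the Eed-/- astrocytes, while Hba-a2 and Hbb-bt were at 0 in both Eed+/+ groups. Their part in the mitochondrial shares was not tested.

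The study removed samples before its tests, set a looser threshold and called genes between Eed-/- and Eed+/+ astrocytes. Here all labelled libraries were kept. Tests were run gene by gene over all genes with edgeR's quasi-likelihood test and Benjamini-Hochberg adjustment, at an adjusted p of 0.05. In the comparison of Eed-/- with Eed+/+ astrocytes, mt-Rnr2 stood at 27830, 24350, 60334, 28751 and 37381 CPM in Eed+/+ and at 39753, 32925, 153555, 146276 and 31345 CPM in Eed-/- astrocytes. The groups overlapped, with the Eed-/- replicates 3 and 4 above all others. Its log2 fold change was 1.15 ± 0.53 (SE, unadjusted p = 0.0300, adjusted p = 0.9999). For the 9 abundant genes the log2 fold changes ran from 0.70 to 1.44, the adjusted p was 0.9999 throughout, and none passed. Of 11 mitochondrial genes tested 0 were called, against 0% of the 8956 genes tested, 1 had an unadjusted p under 0.05 (1.21% of all genes did), and DESeq2 called 0. With RLE size factors 7 of the 11 had an unadjusted p under 0.05, as did 226 of the 8956 genes, and 0 were called. The median log2 fold change was 1.13 over the mitochondrial genes tested and -0.54 over all genes tested. Among well aligned libraries those medians were 0.04 and -0.02, and without Eed-/- replicates 3 and 4 they were -0.14 and -0.33.

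In neurons 13 mitochondrial genes were tested between the genotypes and 0 were called, against 0% of 11862 genes, with 0 at an unadjusted p under 0.05 (7.27% of all genes) and 0 by DESeq2. mt-Cytb stood at 7504 and 239 CPM in the Eed+/+ libraries and at 9901, 11331 and 6332 CPM in the Eed-/- libraries, so that Eed+/+ replicate 2 set the difference (log2 fold change 1.30 ± 1.12, adjusted p = 0.77). Over the 9 abundant genes the log2 fold changes ran from 0.02 for mt-Rnr2 to 1.30 for mt-Cytb. The median over the 13 tested was 0.42, and 0.10 without Eed+/+ replicate 2. Without Eed+/+ replicate 1, which leaves the poorly aligned replicate 2 as the only Eed+/+ library and takes its spread from the Eed-/- libraries, 8 mitochondrial genes passed the test, 7 of them higher in Eed-/- neurons, where 2601 of all 12635 genes passed. Of the nuclear subunit genes 39 of 72 were then higher.

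Astrocytes and neurons were compared in 1 fit over the 4 groups. mt-Rnr1 stood at 12953, 10853, 20801, 11061 and 16713 CPM in Eed+/+ astrocytes and at 18410, 14000, 61214, 46341 and 9799 CPM in Eed-/- astrocytes. In neurons it stood at 7147 and 2834 CPM in Eed+/+ and at 4097, 5129 and 9094 CPM in Eed-/- libraries. Every astrocyte library lay above every neuron library. The gap was narrow, with 9799 CPM in Eed-/- astrocyte replicate 5 against 9094 CPM in Eed-/- neuron replicate 3. The share of all genes that separated the libraries in this way is not given here. The log2 fold change of mt-Rnr1 was 1.92 ± 0.62 (unadjusted p = 0.00213, adjusted p = 0.39), and over all alternatives tried it stayed between 1.08 and 2.26 with an adjusted p of at least 0.0932. mt-Rnr2 had a log2 fold change of 0.89 ± 0.52 (adjusted p = 0.9999), mt-Cytb of 1.58 ± 0.62 (adjusted p = 0.60), mt-Co1 of 1.57 ± 0.68 (adjusted p = 0.74), mt-Nd1 of 1.37 ± 0.65 (adjusted p = 0.83) and mt-Nd5 of 1.47 ± 0.75 (adjusted p = 0.90). Over all alternatives mt-Rnr2 ran from 0.24 to 1.06, mt-Cytb from 0.59 to 3.51 and mt-Co1 from 0.81 to 3.34. mt-Nd1 ran from 0.38 to 3.56 and mt-Nd5 from 0.56 to 3.08. Single libraries moved these estimates: the 9 abundant genes ran from 0.88 to 3.56 without Eed+/+ neuron replicate 1. Without Eed+/+ neuron replicate 2 they ran from 0.02 to 1.67. Of 16 mitochondrial genes tested 0 were called, against 0.015% of 13367 genes. An unadjusted p under 0.05 was found for 5 of them, against 5.51% of all genes, and DESeq2 called 0. Without Eed+/+ neuron replicate 2, 1 of 18 had such a p, beside 478 of all 15145 genes, and with RLE size factors 7 of 16 had, beside 964 of 13367.

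Within Eed+/+ cells 0 of 16 were called between the cell types (0.00748% of all genes), 1 had an unadjusted p under 0.05 (2.29% of all genes), and DESeq2 called 0. Within Eed-/- cells 0 were called (0.0598% of all genes), 1 had an unadjusted p under 0.05 (7% of all genes), namely mt-Rnr1 at a log2 fold change of 2.21 ± 0.81 (adjusted p = 0.34), and DESeq2 called 0. An unadjusted p under 0.05 was found for 8 of the 16 with RLE size factors and for 9 with DESeq2 within Eed-/- cells, beside 1047 and 746 of all 13367 genes. The genotype effect itself was compared between cell types by an interaction term, which called 0 of 16 (0.0524% of all genes), with 0 at an unadjusted p under 0.05 (3.61% of all genes) and 0 by DESeq2. Its estimates for the 9 abundant genes ran from -0.73 to 0.91 on the log2 scale. They rested on the Eed+/+ neurons, running from 0.19 to 1.64 without replicate 2 and from -4.59 to 0.86 without replicate 1.

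Poorly and well aligned libraries were compared with the 4 groups in the model. Of 13367 genes tested 11% were called, 10.3% lower and 0.688% higher in the poorly aligned libraries. Of the 16 mitochondrial genes tested 0 were called and 1 (mt-Tl1) had an unadjusted p under 0.05, against 28.5% of all genes. The median log2 fold change was 0.29 over these 16 and -1.46 over all genes tested. The median over mitochondrial genes was 0.80 with RLE size factors, 1.17 in astrocytes alone, 0.96 without Eed+/+ neuron replicate 2, 0.95 without Eed+/+ neuron replicate 1 and -0.05 without Eed-/- astrocyte replicate 5, so its sign and size depended on single libraries. Between the 9 abundant genes the estimates ran from -0.12 for mt-Co1 to 0.95 ± 0.50 for mt-Rnr2 (adjusted p = 0.21). DESeq2 called 3 of the 16 as higher, the tRNA genes mt-Tl1, mt-Tp and mt-Tv. Over all 13367 genes it called 2221, of which 182 were higher. The 3 tRNA genes drew 0 to 9, 11 to 147 and 0 to 21 reads in a library.

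**Figure D5:**
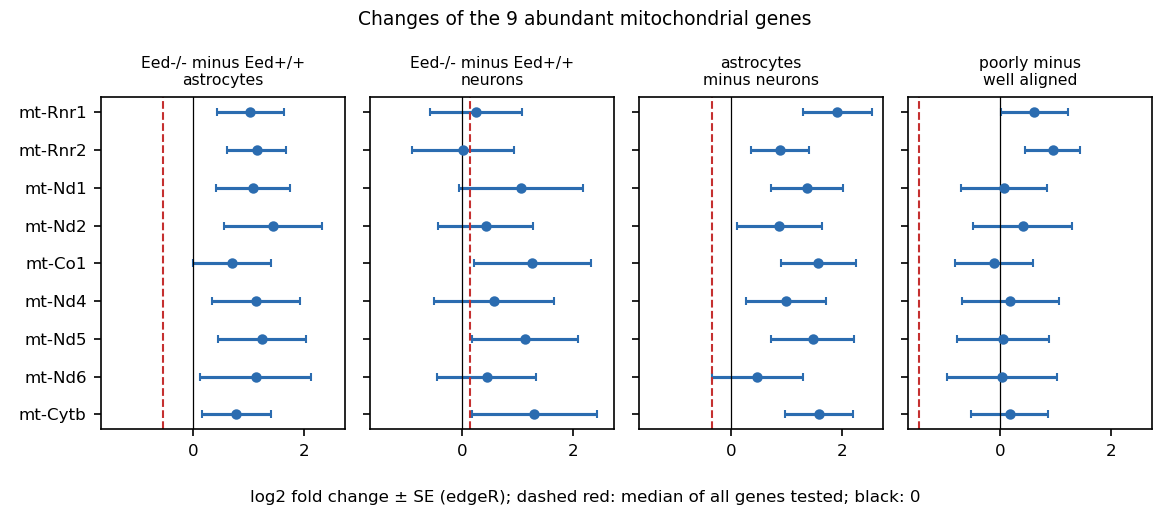
log2 fold change with its standard error (edgeR) of the 9 abundant mitochondrial genes in 4 comparisons, with a black line at 0 and a dashed red line at the median of all genes tested. The points for genotype in astrocytes run from 0.70 to 1.44 and those for astrocytes against neurons from 0.47 to 1.92, and none passed an adjusted p of 0.05.

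The nuclear partners were taken as 72 subunits of complexes I, III, IV and V and 56 factors of mitochondrial DNA maintenance, transcription and RNA processing, of which 55 were in the files. None of the 70 subunits or 40 factors tested between genotypes in astrocytes was called by edgeR, 0 of either list had an unadjusted p under 0.05, and DESeq2 called 0. The median log2 fold change was -0.38 for subunits and -0.69 for factors, beside -0.54 for all genes and 1.13 for the mitochondrial genes. Between genotypes in neurons 0 of 71 subunits and 0 of 53 factors were called by edgeR, 0 had an unadjusted p under 0.05 and DESeq2 called 0, with medians of 0.76 and 0.15 beside 0.15 for all genes. Leaving out Eed+/+ replicate 2 gave medians of 0.04 for subunits and -0.03 for factors. Omission of Eed+/+ replicate 1 instead gave 2.82 and 0.98. Between cell types 0 of 72 and 0 of 53 were called by edgeR, 0 had an unadjusted p under 0.05 and DESeq2 called 0, with medians of 0.02 and -0.53 beside -0.34. They moved to -0.28 and -0.68 without Eed+/+ neuron replicate 2, and to 1.08 and 0.33 without Eed+/+ neuron replicate 1. The most abundant subunit gene was Atp5b, the catalytic beta subunit of the ATP synthase, at 1253 to 1603 CPM in Eed+/+ and 347 to 1918 CPM in Eed-/- astrocytes (log2 fold change -0.35 ± 0.93, adjusted p = 0.9999). Cox4i1, a subunit of complex IV, followed at 1006 to 1794 and 241 to 1762 CPM (-0.21 ± 0.93, adjusted p = 0.9999). Of the factors, Slc25a36, a carrier of pyrimidine nucleotides, stood at 77.4 to 219.7 and 0 to 118 CPM (-1.23 ± 1.35, adjusted p = 0.9999). Grsf1, a binding protein of mitochondrial RNA, stood at 0 to 81.1 and 0 to 1243 CPM (2.35 ± 1.37, adjusted p = 0.9999).

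Between poorly and well aligned libraries these lists did yield calls. Of 53 factors tested 11 were lower in poorly aligned libraries and 0 higher, where 10.3% of all genes were lower. The count depended on the setting: it was 3 with RLE size factors (516 of all 13367 genes lower), 14 with DESeq2 (2039 of 13367) and 6 of 50 in astrocytes alone (940 of 11945). It was 4 to 13 when 1 library was left out, with 4 without Eed-/- astrocyte replicate 4, 5 without Eed-/- astrocyte replicate 1 and 6 without Eed+/+ astrocyte replicate 3. Without Eed-/- astrocyte replicate 4, 563 of all genes were called in either direction, against 1473 in the main fit. The 11 factors called in the main fit were led by Fastk, a regulator of mitochondrial RNA (log2 fold change -7.09 ± 1.81, adjusted p = 0.0161), Polrmt, the mitochondrial RNA polymerase (-6.30 ± 1.65, adjusted p = 0.0169), and Ptcd1, which acts on mitochondrial RNA (-7.30 ± 2.07, adjusted p = 0.0232). Of the 72 subunits 1 was lower, Ndufb6 of complex I (-3.92 ± 1.34, adjusted p = 0.0472), a count that was 0 with RLE size factors, 3 with DESeq2 and 0 to 5 when 1 library was left out. The median was -0.92 for subunits and -1.93 for factors, beside -1.46 for all genes.

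Protein-coding mitochondrial reads were also set against reads of their nuclear partners in the same library. For every 100 reads on the 72 nuclear subunit genes there were 97.8 to 210 reads on protein-coding mitochondrial genes in the 10 well aligned libraries. The poorly aligned libraries fell outside that range. Eed+/+ astrocyte replicate 3 had 227, Eed-/- astrocyte replicates 1, 3 and 4 had 287, 499 and 902, and Eed+/+ neuron replicate 2 had 19.7. In that neuron library the subunit genes together stood at 4220 CPM, against 13225 to 26944 CPM in the other 14 libraries, so both genomes' messages were low there.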

How the data were processed

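RNA-seq libraries were made by the authors from sorted cells with the Smart-Seq v2 protocol, aligned with STAR to mm10 (GRCm38) and counted per gene with the same program. The deposited values are unnormalized counts, 1 file per library, of reads with a single alignment. Every file lists 0 multimapping reads. The sources used here do not name the release of the gene annotation. The unstranded column was used, since the protocol does not mark strand. Lines of read totals (unmapped, outside genes, ambiguous) stayed out of library sizes and tests. In the labelled libraries, counts summed to between 211736 and 3178529.

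Symbols, coordinates and transcript sequences came from GENCODE mouse release M21 (GRCm38). Identifiers matched for 53274 of 53379 genes. Windows of 50 bases were searched exactly, on both strands, in all annotated nuclear transcripts.

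Tests used edgeR 4.0.16 in R 4.3.3 (TMM normalization, filterByExpr, robust quasi-likelihood), with DESeq2 1.42.0 as an alternative. Standard errors are the log2 fold change divided by the square root of the F statistic. Benjamini-Hochberg adjustment ran over all genes tested at 0.05. The fits were also run on simulated counts, with large changes set in abundant genes and 1 fixed spread for all genes. The simulation did not imitate poorly aligned libraries. It cannot show whether changes of the size estimated here would be called. Genotypes were compared within a cell type on the 2 groups alone, cell types and alignment in 1 fit over the 15 labelled libraries. Alternatives were RLE size factors, no filter, summed strands, normalization without mitochondrial genes, only well aligned libraries, 1 fit for all groups, library run, replicate block and leaving out libraries. Those chosen after seeing the data were the omission of Eed-/- astrocyte replicates 3 and 4 together, single runs of library numbers for tests, astrocytes alone in the alignment test, settings for the nuclear lists, and all settings of the rRNA ratio. Sums over mitochondrial genes are given without a test. Mitochondrial genes with at least 1% of mitochondrial reads in a group were given values and the others ranges and counts. Of the nuclear lists, up to 3 called genes per direction were named by p, and otherwise the 2 with the highest mean CPM. mt-Tl1 and mt-Tv were named after their values were seen. Members and lists were chosen with earlier results of these data known. p-values measure the spread between libraries, which includes differences in library quality. The study's methods state that replicates for astrocyte sorting were individual animals. A library with conflicting cell type labels entered no comparison.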

Additional observations from a re-analysis of the deposited data

Results flagged for a closer look

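A gap between 1 astrocyte library and the other 4 of its group that exceeded 0.71 of the group's range (Dixon's limit for 5 values) was found for 4 of 28 sets of values examined. Chance alone gives about 1 in 20 for independent sets. Most of these sets are shares or ratios of the same reads, so 4 of 28 cannot be set against that rate. In Eed+/+ astrocyte replicate 3, which is poorly aligned, rRNA made up 64.6% of mitochondrial reads and mt-Rnr2 48.1%, both the highest of the 5, and mt-Nd1 made up 7.06%, the lowest of the 5. In Eed-/- astrocyte replicate 4, also poorly aligned, mt-Nd2 made up 2.23% of mitochondrial reads, the highest of the 5. Groups of neurons were too small for this rule. No interaction of genotype with cell type passed the test for a mitochondrial gene.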

How the results depend on the processing

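The count of mitochondrial genes called was 0 in all 7 comparisons under every alternative run, with 2 exceptions. DESeq2 called 3 between poorly and well aligned libraries, and leaving out single libraries gave 0 to 8 in neurons (8 without Eed+/+ neuron replicate 1) and 0 in the other comparisons. With RLE size factors the median log2 fold change of all genes moved from -0.54 to -0.37 in astrocytes and from -1.46 to -1.02 for alignment. Over all genes, 1473 were called for alignment, against 615 with RLE, 720 without a filter, 2221 with DESeq2 and 563 without Eed-/- astrocyte replicate 4. A fit with the replicate block called 0 mitochondrial genes in all 6 comparisons where it could be made. Between cell types that fit could use only the first run of library numbers. Over all 12729 genes tested there it called 4 between cell types in Eed-/- cells and 2 for the interaction, against 0 and 0 in the same libraries without the block. Deviations of same-numbered libraries from their group means correlated between -0.259 and 0.171. Of the 5 Eed+/+ astrocyte libraries 1 correlated best with the Eed-/- astrocyte library of its own number (2 of 5 in the other direction). With groups this small and some libraries poorly aligned, these values cannot show whether same-numbered astrocyte and neuron libraries came from 1 animal. The main fits treated all libraries as unpaired. For the shares, taking all reads as denominator gave -0.71 percentage points between genotypes in astrocytes (reversed), -1.73 between poorly and well aligned libraries (reversed) and 0.703 between cell types. Leaving out Eed-/- astrocyte replicates 3 and 4 together, a setting chosen after seeing the data, reversed the astrocyte difference and gave -0.161. Leaving out 1 library gave 5.33 to 12.2 points for genotype in astrocytes, 0.126 to 3.00 in neurons, 5.68 to 9.12 for cell type and 7.12 to 14.9 for alignment, and 17.5 to 24.5 reads per 100 for the rRNA ratio. The causes of these changes were not tested. Of the 22 tRNAs, 20 had 114 reads or fewer over all libraries, and the shares of depth, ambiguous reads and nuclear copies in this were not tested.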

Other observations

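The Eed-/- library with conflicting cell type labels had 8.59% of its 221456 gene reads on mitochondrial genes and 55.4% of those reads on rRNA. It held 39.1 mt-Rnr1 reads per 100 mt-Rnr2 reads, and 17.7% of its reads aligned uniquely. Summed over the markers, it stood at 21183 CPM for astrocytes and 9.03 CPM for neurons. It was left without a group.

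The reads summed over the 37 mitochondrial genes came to an even number in all 16 libraries, the library without a group included. For the other 21 chromosomes the sum was even in 5 to 12 of the 16. This was noticed after the values were seen, and its cause was not tested.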
